A study of Mus musculus with 8 samples.

Results

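Growth factors of blood vessels and the receptors and surface proteins of endothelial cells that answer to them were followed in fasted and fed mouse muscle through 10 genes. The genes were chosen by name: Vegfa and Vegfb, Kdr, Flt1, Angpt1 and Angpt2, Tek, Apln, Hif1a and Pecam1. Each had exactly 1 transcript cluster (the array's unit of measurement, about 1 per gene) with that single symbol, so 10 of the 14860 genes with a named cluster, and 10 of 16755 clusters in all, are described here. Male mice aged 8 weeks were fasted for 24 h or fed ad libitum, and RNA of the tibialis anterior, a fast muscle of the lower leg, was hybridised to exon arrays. Each array held pooled RNA of 3 mice, and the experiment was done 4 times with 1 fasted and 1 fed pool, which gave 4 fasted and 4 fed arrays. The strain is not given in the sources used here, and no genotype or agent is named for either group. The deposited levels are on a log2 scale, so that a difference of 1 is a 2-fold difference.

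VEGF-A is the main signal by which tissues call for blood vessels. It binds the receptor tyrosine kinases KDR, which carries most of the growth signal, and FLT1, which holds the ligand tightly and signals weakly. The angiopoietins act on the endothelial receptor TEK, also called TIE2: ANGPT1 activates it and keeps capillaries quiet and tight, while ANGPT2 opposes it in many settings and loosens them. Apelin signals to endothelial cells through a receptor of its own, and HIF1A is the oxygen-regulated factor that drives VEGF-A in hypoxia. In skeletal muscle the fibres are the main source of VEGF-A, and the receptors sit mostly on the capillaries between them.

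None of the 10 genes passed the test, at an adjusted p of 0.05 over all 16755 clusters (limma's paired test with experiment as a block), and 0 rose and 0 fell. Across the array 0.818% of clusters passed, of which 0.531% of all rose and 0.286% fell, so a count of 0 among 10 genes is close to the background. At an unadjusted p under 0.05 there were 4 of 10, Angpt1, Kdr, Pecam1 and Vegfa, where 10.9% of all clusters reached it. The fasted level was below the fed one in 4 of 4 experiments for Vegfa, Vegfb, Kdr and Angpt1, where 10.1% of all clusters did so, and above it in 4 of 4 for Flt1 and Pecam1, where 8.61% did. These 6 of 10 stand beside 18.7% of clusters with 1 direction in 4 of 4 experiments. The 10 genes were chosen with earlier results of these data known, so shares above the background describe them and are not a test. The fasted and fed arrays did not overlap for 2 genes, Vegfa and Angpt1, with all fasted arrays below all fed ones; 3.22% of clusters showed this, 3.55% the opposite and 6.77% either. The median difference of the 10, fasted minus fed, was -0.10 on the log2 scale, against -0.02 over all clusters. Differences of this size were hard to call with 4 pairs. In simulated arrays of 16755 clusters the fit recovered 14% of clusters changed by 0.5 and 84% of those changed by 1, and the differences of the 10 genes ran from -0.68 to 0.34.

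**Figure D1:**
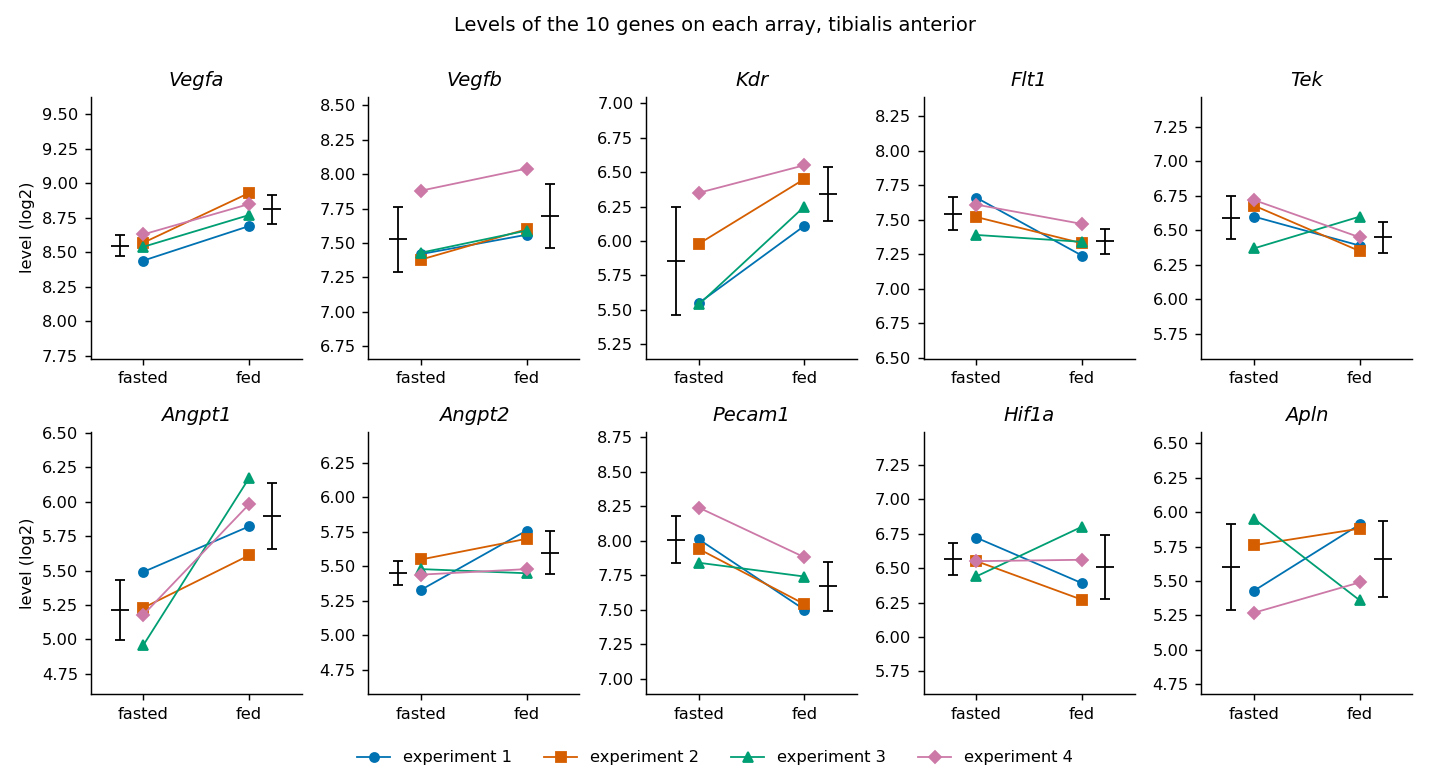
Level (log2) of each of the 10 genes on each array, fasted left and fed right, with a line for each experiment and, in black, the mean ± SD of 4 arrays; every panel spans the same range of log2 units. All 4 lines run lower in fasted muscle for Vegfa, Vegfb, Kdr and Angpt1, and higher for Flt1 and Pecam1.

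**Figure D2:**
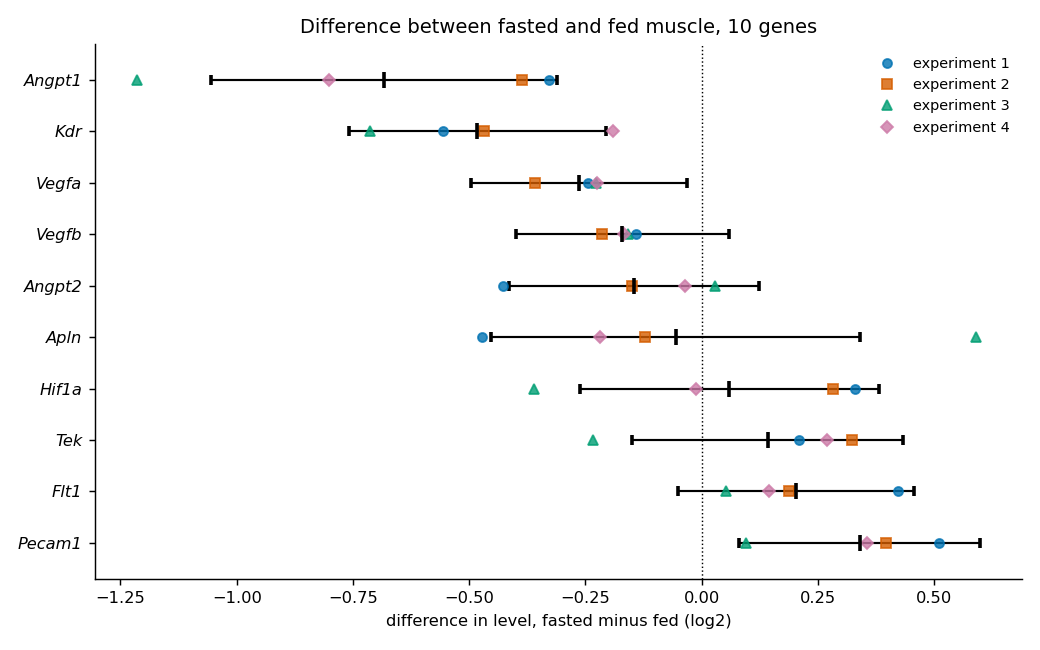
Difference in level, fasted minus fed (log2), of each gene in each of the 4 experiments (coloured points) with the mean and its 95% interval from the moderated standard error (black, not adjusted for multiple genes). The means run from -0.68 for Angpt1 to 0.34 for Pecam1, and experiment 3 lies across 0 from the mean for Apln, Hif1a, Tek and Angpt2.

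The promoter regions of 3 VEGF ligand genes are shown because their mean differences lay on both sides of 0, though only that of Vegfd passed the test. The regions were searched for the element that HIF binds. They are the 250 bases before the start of Vegfa, Vegfb and Vegfd, 5′ to 3′ on the gene's strand, from RefSeq on GRCm38.p6. Vegfa lies on the minus strand at chr17:46032378-46032627, Vegfb on the minus strand at chr19:6987652-6987901 and Vegfd on the plus strand at chrX:164373272-164373521. Capitals mark ACGTG or GCGTG, the core letters of the HIF element, on either strand.
Vegfa: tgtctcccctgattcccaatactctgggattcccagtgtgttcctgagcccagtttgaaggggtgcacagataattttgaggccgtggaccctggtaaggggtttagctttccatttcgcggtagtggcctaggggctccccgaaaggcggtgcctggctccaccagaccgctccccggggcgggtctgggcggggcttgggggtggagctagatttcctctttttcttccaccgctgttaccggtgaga
Vegfb: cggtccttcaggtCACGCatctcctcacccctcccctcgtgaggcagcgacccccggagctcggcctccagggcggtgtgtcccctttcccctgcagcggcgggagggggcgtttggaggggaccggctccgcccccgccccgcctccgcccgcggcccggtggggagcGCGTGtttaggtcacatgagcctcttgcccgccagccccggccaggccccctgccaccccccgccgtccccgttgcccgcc
Vegfd: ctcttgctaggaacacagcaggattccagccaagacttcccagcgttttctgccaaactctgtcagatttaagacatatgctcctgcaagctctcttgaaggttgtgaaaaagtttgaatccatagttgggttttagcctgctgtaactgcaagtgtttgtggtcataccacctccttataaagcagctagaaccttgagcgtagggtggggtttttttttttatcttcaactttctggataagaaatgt
The Vegfb window held 2 matches, both of GCGTG and 1 on each strand, and the windows of Vegfa and Vegfd held 0. Of 32851 mouse promoter windows of this length, 38.6% held either motif. No match says only that these letters are not in the window shown. The windows also differ in composition, with 59.2% G and C for Vegfa, 76.4% for Vegfb and 42.4% for Vegfd.

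Among the ligands, Vegfa (cluster 6855659), the principal growth factor for capillaries, stood at 8.44, 8.57, 8.54 and 8.63 in experiments 1 to 4 in fasted muscle, and at 8.69, 8.93, 8.77 and 8.85 in fed muscle. The highest fasted array lay just under the lowest fed one. The mean was 8.55 ± 0.08 in fasted and 8.81 ± 0.11 in fed muscle (SD, n = 4 each), a difference of -0.26 ± 0.10 (SE; limma adjusted p = 0.373), or 0.833-fold, with an interval of 0.709- to 0.978-fold. Every interval given here is a 95% interval of the single gene, not adjusted for the number of genes. Vegfb (cluster 6871273), a relative that binds FLT1 and is tied more to fatty acid handling than to vessel growth, was at 7.42, 7.38, 7.43 and 7.88 in fasted and 7.56, 7.60, 7.59 and 8.04 in fed muscle. Its 2 arrays of experiment 4 stood apart from the other 6, both about equally high, so the groups overlapped while the pairs did not cross. The 4 differences of Vegfb were close together, at -0.14, -0.21, -0.16 and -0.17, with a mean of -0.17 ± 0.10 (SE; limma adjusted p = 0.628, interval 0.758- to 1.04-fold). The ratio of Vegfa to Vegfb within an array differed between fasted and fed muscle by -0.09 ± 0.04 on the log2 scale (SD, n = 4).

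Of the 5 VEGF family ligands on the array, 1 rose and 0 fell. The one that rose was Vegfd (cluster 7015007), best known as a ligand of the lymphatic receptor and, in humans, of KDR as well. It had levels of 7.73, 7.34, 7.41 and 7.14 in fasted and 6.38, 6.55, 6.42 and 6.07 in fed muscle, with every fasted array above every fed one. The difference was 1.05 ± 0.12 (SE; limma adjusted p = 0.0156), or 2.07-fold, and it was 1.35, 0.79, 0.99 and 1.07 in the 4 experiments. The call ended without experiment 1 or 4 (limma adjusted p = 0.0737 and 0.0716), where the difference was 0.95 and 1.04, and with low values raised to a floor (0.110); it held in 9 of 12 refits, and not in the paired test without moderated standard errors (0.259). Vegfc, the other lymphatic ligand, was at -0.29 ± 0.11, lower in 4 of 4 experiments with no overlap between the groups. Pgf, a ligand of FLT1, was at 0.08 ± 0.14, and neither Vegfc nor Pgf passed (limma adjusted p = 0.346 and 0.939). The median difference of the 5 ligands was -0.17. Of 3 measured markers of lymphatic endothelium 0 passed, and their mean level ran from 5.75 to 5.86 in fasted and from 5.65 to 6.15 in fed muscle. Of these markers 1 lay above 0 and 2 below, from -0.19 for Pdpn, with no overlap, to 0.25 for Lyve1. The means of Lyve1 and Prox1 over all arrays, 5.71 and 4.63, lay below every array median (5.76 to 5.91). Part of these levels may be background.

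The receptors of VEGF-A had values on opposite sides of 0. In whole muscle, fewer endothelial cells and less RNA per endothelial cell cannot be told apart. Kdr (cluster 6939241) was at 5.55, 5.98, 5.54 and 6.35 in fasted and 6.11, 6.45, 6.25 and 6.55 in fed muscle. Kdr was lower within each experiment, by -0.56, -0.47, -0.71 and -0.19 in experiments 1 to 4. The groups overlapped through the fasted pool of experiment 4. The difference was -0.48 ± 0.12 (SE; limma adjusted p = 0.163), or 0.716-fold with an interval of 0.591- to 0.867-fold. Flt1 (cluster 6943162) was at 7.66, 7.52, 7.39 and 7.61 in fasted and 7.24, 7.33, 7.34 and 7.47 in fed muscle, higher within each experiment, by 0.05 in experiment 3 and 0.42 in experiment 1. Its difference was 0.20 ± 0.11 (SE; limma adjusted p = 0.589), or 1.15-fold with an interval of 0.965- to 1.37-fold, and 0.13 without experiment 1. The log2 ratio of Kdr to Flt1 within an array was thus lower in fasted muscle in 4 of 4 experiments, by -0.98, -0.66, -0.77 and -0.34 (mean -0.68 ± 0.27 SD), a comparison that was chosen with these values known and has no test. The co-receptor gene Nrp1, which presents VEGF-A to KDR, was at 6.94 ± 0.27 in fasted and 7.44 ± 0.14 in fed muscle (SD, n = 4), with no overlap and a difference of -0.50 ± 0.14 (SE; limma adjusted p = 0.210). Nrp1 differed by -0.97 in experiment 3, and by -0.34 with that experiment left out. Of the 3 measured receptors and co-receptors 0 passed, and their median difference was -0.48.

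In the angiopoietin system the activating ligand Angpt1 (cluster 6835353) had the lowest difference of the 10 genes. It stood at 5.49, 5.23, 4.96 and 5.18 in fasted and 5.82, 5.61, 6.17 and 5.98 in fed muscle, all fasted arrays below all fed ones. The mean was 5.21 ± 0.22 in fasted and 5.90 ± 0.24 in fed muscle (SD, n = 4), a difference of -0.68 ± 0.16 (SE; limma adjusted p = 0.143), or 0.623-fold with an interval of 0.481- to 0.806-fold. The size varied between experiments, at -0.33, -0.39, -1.21 and -0.80. With experiment as a random in place of a fixed block Angpt1 passed, at a limma adjusted p of 0.0468, the only one of 12 refits in which any of the 10 genes did; without the block it was 0.0578. Angpt2 (cluster 6980871), the opposing ligand, was at 5.33, 5.55, 5.48 and 5.44 in fasted and 5.76, 5.70, 5.45 and 5.48 in fed muscle, apart in experiments 1 and 2 and nearly equal in 3 and 4. Its difference was -0.15 ± 0.12 (SE; limma adjusted p = 0.776, interval 0.750- to 1.09-fold), and -0.05 without experiment 1. The ratio of Angpt1 to Angpt2 differed by 0.10, -0.24, -1.24 and -0.77 in the 4 experiments, so it had no common direction. Both genes were dim: their means over all arrays, 5.55 and 5.52, lay below every array median (5.76 to 5.91). Part of their levels may be background.

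Tek (cluster 6915506), the receptor of both angiopoietins, was at 6.60, 6.68, 6.37 and 6.72 in fasted and 6.39, 6.35, 6.60 and 6.45 in fed muscle. It was higher in fasted muscle in experiments 1, 2 and 4 and lower in experiment 3, with a difference of 0.14 ± 0.13 (SE; limma adjusted p = 0.813, interval 0.902- to 1.35-fold). Without experiment 3 it was 0.27 (limma adjusted p = 0.358), and without experiment 2 it was 0.08. Of 8 measured genes of the angiopoietin and Tie system 0 passed in either direction, with a median difference of -0.03. Besides the members, Angptl4, an inhibitor of lipoprotein lipase that PPAR factors drive in fasting, was at 0.48 ± 0.18, higher in 3 of 4 experiments (limma adjusted p = 0.373) and at 0.30 without experiment 4. Angptl1, a secreted relative of the angiopoietins, was at -0.28 ± 0.15, lower in 3 of 4 (limma adjusted p = 0.584) and at -0.12 without experiment 3, and Tie1, a partner of TEK, was at 0.08 ± 0.11 (limma adjusted p = 0.910).

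Apln (cluster 7016678), which encodes apelin, a peptide of vascular and metabolic signalling, had pairs of both signs, with differences from -0.47 to 0.59. It stood at 5.43, 5.76, 5.95 and 5.27 in fasted and 5.91, 5.88, 5.36 and 5.49 in fed muscle. Its mean over all arrays, 5.63, lay below every array median, so part of the level may be background. The difference was -0.47, -0.12 and -0.22 in experiments 1, 2 and 4 and 0.59 in experiment 3, so the mean of -0.06 ± 0.17 (SE; limma adjusted p = 0.970) had an interval of 0.730- to 1.27-fold. Without experiment 3 the difference was -0.27 (limma adjusted p = 0.398). The apelin receptor gene Aplnr, which marks endothelium of veins and growing vessels, was more even: it was at 6.15, 6.01, 6.34 and 6.68 in fasted and 7.06, 6.86, 6.86 and 7.06 in fed muscle. All fasted arrays of Aplnr lay below all fed ones, with a difference of -0.66 ± 0.13 (SE; limma adjusted p = 0.0710) or 0.631-fold. Aplnr passed in 3 of 12 refits, with adjusted p from 0.0297 to 0.293. Of the 2 measured genes of the apelin system 0 passed.

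**Figure D3:**
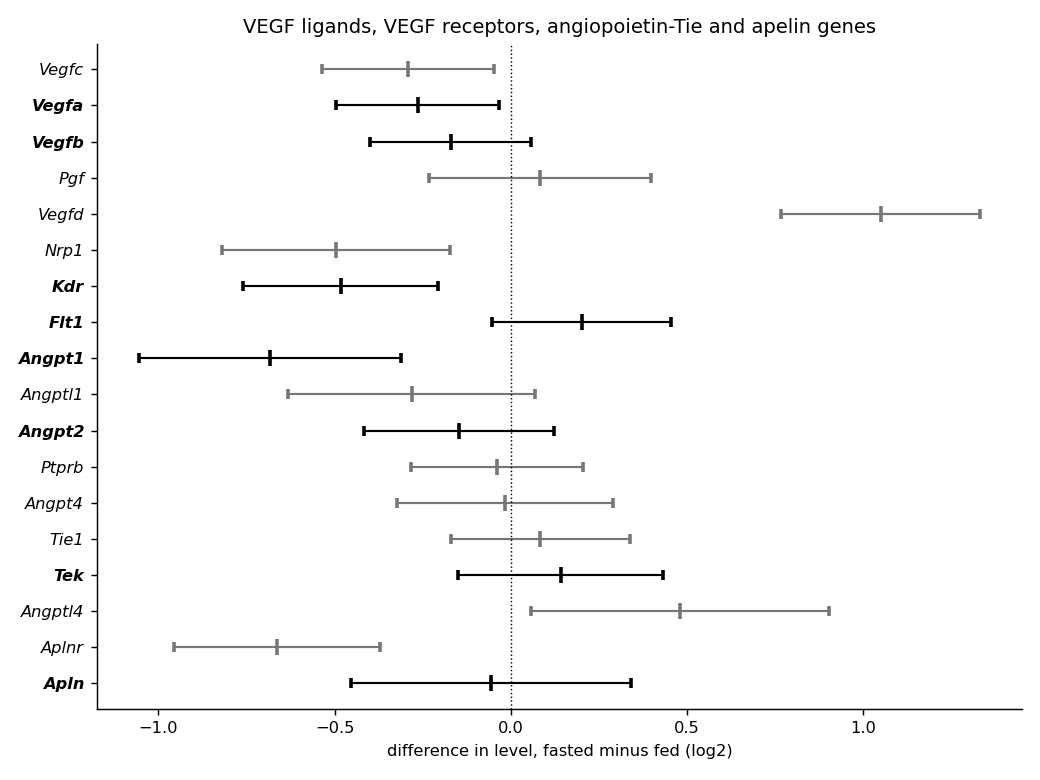
Difference in level, fasted minus fed (log2), with its 95% interval, for the measured genes of 4 systems from top to bottom: VEGF ligands, VEGF receptors and co-receptors, angiopoietins and Tie receptors, and apelin. The 8 members among them are in bold and black and the other genes in grey; Vegfd, at 1.05, is the one gene that passed.

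Hif1a (cluster 6796048), the oxygen-sensing transcription factor upstream of Vegfa in hypoxia, was at 6.72, 6.55, 6.44 and 6.55 in fasted and 6.39, 6.27, 6.80 and 6.56 in fed muscle. It was higher in fasted muscle in experiments 1 and 2, lower in experiment 3 and nearly equal in experiment 4, and the difference of 0.06 ± 0.14 (SE; limma adjusted p = 0.959) had an interval of 0.834- to 1.30-fold. Without experiment 3 it was 0.20. HIF1A is controlled largely through the stability of the protein, which arrays do not measure. Of 13 measured HIF factors and regulators 0 passed, with a median of 0.06. Of these, 8 lay above 0 and 5 below, from -0.26 to 0.78. Arnt, the partner that HIF1A needs to bind DNA, was at 7.58 ± 0.16 in fasted and 7.06 ± 0.14 in fed muscle (SD, n = 4), with no overlap (difference 0.52 ± 0.12 SE, limma adjusted p = 0.146). Egln3, a prolyl hydroxylase that marks HIF for destruction and is itself a HIF target, was at 0.78 ± 0.19 (limma adjusted p = 0.164). Its difference was 1.56 in experiment 1, and 0.52 with that experiment left out. Cited2, which competes with HIF for its coactivators, was at 0.29 ± 0.11 (limma adjusted p = 0.357).

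Of 24 measured hypoxia and HIF target genes 1 rose and 1 fell. Ddit4, an inhibitor of mTORC1 that glucocorticoids also induce, rose by 0.98 ± 0.12 (SE; limma adjusted p = 0.0192), and Tfrc, the transferrin receptor, fell by 1.37 ± 0.21 (limma adjusted p = 0.0376). The call of Ddit4 held in 9 of 12 refits and ended without experiment 1 or 4 and with the floor (limma adjusted p = 0.0939, 0.0910 and 0.111). That of Tfrc held in 7 and ended without experiment 1, 2 or 4 (0.141, 0.122 and 0.0542), after median centring (0.0976) and with the floor (0.190). Neither passed the paired test without moderated standard errors (0.274 and 0.413). The list had 11 members above 0 and 13 below, with a median of -0.02, the same as over all clusters. Adm, the vasodilator peptide adrenomedullin and a classical hypoxia gene, was at 0.49 ± 0.26 (limma adjusted p = 0.578), and at 0.16 without experiment 2, 0.76 without experiment 4 and 0.33 with low values raised to a floor. Of 12 measured genes that act upstream of Vegfa in muscle 0 passed, with a median of -0.06. Ppargc1a, the coactivator PGC-1alpha, which drives Vegfa in muscle independently of HIF, was at 8.46 ± 0.24 in fasted and 8.85 ± 0.06 in fed muscle (SD, n = 4), with no overlap (difference -0.39 ± 0.13 SE, limma adjusted p = 0.292). Foxo1 and Foxo3, transcription factors released when insulin falls, were at 0.35 ± 0.14 and 0.32 ± 0.11 (limma adjusted p = 0.399 and 0.338), Foxo1 at 0.20 without experiment 3.

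Pecam1 (cluster 6791960), the adhesion molecule CD31 that lines the junctions between endothelial cells, had the highest difference of the 10 genes. It was at 8.01, 7.94, 7.84 and 8.24 in fasted and 7.50, 7.54, 7.74 and 7.88 in fed muscle, higher within each experiment and overlapping between groups. The difference was 0.34 ± 0.11 (SE; limma adjusted p = 0.292), or 1.27-fold with an interval of 1.06- to 1.51-fold.

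The other endothelial markers did not share one direction. Of 28 measured markers besides Pecam1, Kdr, Flt1 and Tek, 0 passed (limma), 6 had an unadjusted p under 0.05 (10.9% of all clusters did), and 14 lay above and 14 below 0, from -0.45 to 0.44 with a median of 0.00. Their mean level ran from 6.43 to 6.60 in fasted and from 6.49 to 6.58 in fed muscle, and differed by -0.09, -0.01, 0.02 and 0.02 in experiments 1 to 4. Cdh5, the cadherin of endothelial junctions, was at 8.43 in fasted and 8.42 in fed muscle. Among those on the side of Pecam1, Gpihbp1, which carries lipoprotein lipase to the capillary lumen, was at 0.44 ± 0.14 and Cldn5, a tight junction protein, at 0.44 ± 0.13. The groups did not overlap for Gpihbp1 and overlapped for Cldn5 (limma adjusted p = 0.270 and 0.221). On the side of Kdr, Myct1 was at -0.45 ± 0.10 and Ets1, a transcription factor of endothelial genes, at -0.38 ± 0.10, each with no overlap between the groups (limma adjusted p = 0.131 and 0.187). Cldn5 and Myct1 were dim: their means over all arrays, 5.39 and 5.67, lay below every array median (5.76 to 5.91). Part of their levels may be background. The 4 endothelial members lay within or just outside the range of the other markers: Kdr, at -0.48, was the lowest of all 32.

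**Figure D4:**
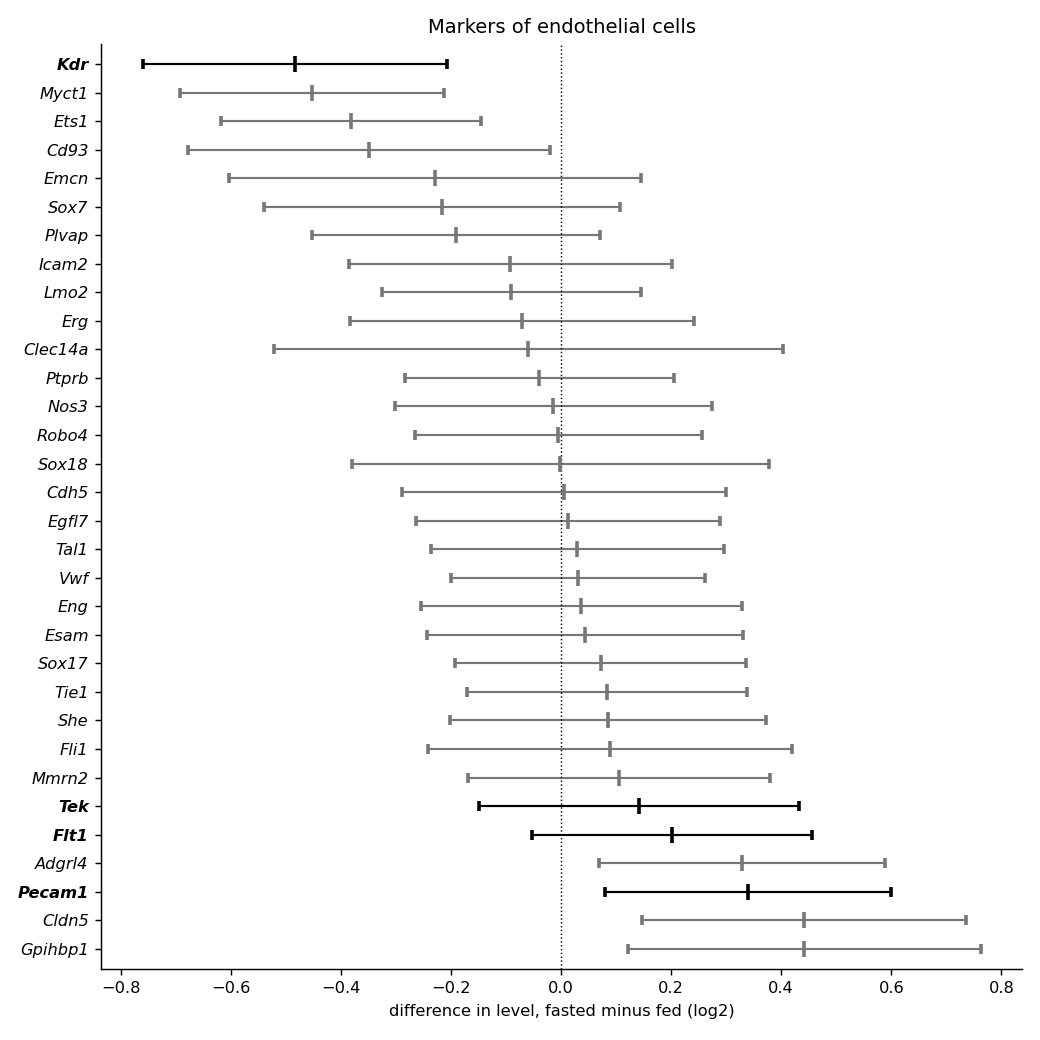
Difference in level, fasted minus fed (log2), with its 95% interval, for 32 measured endothelial markers in rising order; Kdr, Tek, Flt1 and Pecam1 are in bold and black. Markers lie on both sides of 0, from -0.48 to 0.44, and none passed the test.

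Of 12 measured genes of Notch signalling, which selects sprouting cells, 0 passed, with a median of -0.03 and differences from -0.21 to 0.19. The Notch target Hes1 was at -0.21 ± 0.12, lower in 4 of 4 experiments, the arterial ligand Efnb2 at 0.19 ± 0.12 (0.10 without experiment 4) and Hey2, another Notch target, at 0.18 ± 0.12 (0.07 and 0.26 without experiments 2 and 1). The mean of Hey2 over all arrays, 4.59, lay below every array median, so part of its level may be background. Of 13 other angiogenic factors 0 passed (median 0.03), with the sphingosine phosphate receptor S1pr1 at 0.24 ± 0.11 and the fibroblast growth factor Fgf1 at 0.21 ± 0.11. Of 11 angiogenesis inhibitors 0 passed (median -0.06), with 3 above 0 and 8 below, from -0.26 to 0.66. The 3 with the smallest adjusted p, named next, are the 3 above 0. Thbs1, the matrix protein thrombospondin 1, was at 0.44 ± 0.11 and Cd36, both a thrombospondin receptor and a fatty acid transporter of muscle, at 0.66 ± 0.17, each higher in 4 of 4 experiments (limma adjusted p = 0.170 and 0.185). In experiment 3 the difference of Cd36 was 0.05. The metalloprotease inhibitor Timp3, which also blocks KDR, was at 0.33 ± 0.11 with no overlap (limma adjusted p = 0.286).

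The arrays carried the signature of muscle fibres, with a mean level of 7 fibre markers, Ckm and Acta1 among them, from 11.5 to 11.9 in fasted and from 11.6 to 11.9 in fed muscle, 0 of 7 passing. Markers of pericytes and smooth muscle cells (0 of 11), fibroblasts (0 of 8), leukocytes (0 of 8), erythroid cells (0 of 2), Schwann cells (0 of 4) and satellite cells (0 of 5) held no gene past the test, and the adipocyte list held 1 of 7, Plin4, which was higher by 0.68 ± 0.10 (limma adjusted p = 0.0330). Plin4 passed in 6 of 12 refits and did not pass when any 1 experiment was left out (limma adjusted p from 0.0631 to 0.157), after median centring (0.0545), with the floor (0.0815) or without moderated standard errors (0.134). The adipocyte list as a whole was split, with 4 genes above 0 and 3 below and a median of 0.02. Among the lists of cell type markers, that of fibroblasts had the median farthest from 0, -0.17. Its mean level ran from 7.88 to 8.18 in fasted and from 7.91 to 8.44 in fed muscle. The fasted mean was lower in 4 of 4 experiments, with differences of -0.26, -0.02, -0.35 and -0.15, so nearly equal in experiment 2. The list was split, with 5 genes below 0 and 3 above, from -0.95 for Lum to 0.29 for Pdgfra. The part of fibroblasts in the values of Angpt1, which cells around vessels make, was not tested. Pericyte and smooth muscle markers, the cells best known for Angpt1, had a mean level from 7.24 to 7.48 in fasted and from 7.31 to 7.43 in fed muscle. The mean difference was -0.01, with 0.01, 0.02, -0.13 and 0.04 in experiments 1 to 4. The part of these cells in the values of Angpt1 was not tested either.

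The genes whose levels ran most like those of each member over the 8 arrays were taken from 14850 others by Pearson correlation, as a description only, since each is the best of many and all share the same 8 arrays. Vegfb ran closest to Ehbp1l1 (r = 0.991), Tle5 (0.989) and Fitm1 (0.988). Flt1 ran closest to Psmc6 (0.991), a proteasome ATPase, Ivns1abp (0.985) and Cul1 (0.981), a scaffold of ubiquitin ligases. Pecam1 ran closest to Atf4 (0.974), a transcription factor of the amino acid response, Cdkn1b (0.974), a cell cycle inhibitor, and Tnrc6a (0.972). None of the 12 genes named as closest to Vegfb, Flt1, Pecam1 and Angpt1 is an endothelial marker of the lists used here; those of Angpt1 were Klhl23 (0.979), Jarid2 (0.977) and Rap2c (0.970). For Vegfa they were Cmc2 (0.973), Slco5a1 (0.970) and Aurka (0.968), and for Kdr Tmem218 (0.978), Bola3 (0.973) and B4gat1 (0.972). Angpt2 ran closest to Npl (0.981), Gas2l1 (0.961) and Rdh5 (0.959). For Apln they were Slc22a17 (0.988), Lmx1b (0.987) and Fermt3 (0.972), for Hif1a Atp1b3 (0.948), Ercc3 (0.942) and Eif4h (0.934), and for Tek a RIKEN clone (0.951), Cep57 (0.949) and Ric1 (0.945). Among the members themselves the closest pairs were Flt1 with Pecam1 (r = 0.908) and Vegfa with Kdr (0.869), and the most opposed was Angpt2 with Pecam1 (-0.793). The r values were taken over levels, with the differences between fasted and fed muscle and between experiments left in. Genes that share a direction can therefore correlate, and none of these relations says that the genes share a control.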

How the data were processed

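Each of 8 arrays held amplified cDNA of pooled tibialis anterior RNA, per the labels' protocols. The authors deposited values on a log2 scale made with RMA, per the submitters' processing notes; the base was read from the values, which ran from 1.08 to 13.3 with array medians from 5.76 to 5.91. Its version is not given in the sources used here. Array correlations were 0.957 to 0.980, and no detection calls were used, so a low level may be background. Of 16755 clusters 14996 had 1 symbol in the platform annotation, 1019 several and 740 none; the 10 symbols matched RefSeq by Entrez number.

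Groups came from the titles. The paired model used limma 3.58.1 (R 4.3.3) through lmFit and eBayes, with experiment as block and 3 residual plus 4.84 prior degrees of freedom, with Benjamini-Hochberg over 16755 clusters at 0.05. The pairing comes from the series description; correlations of paired deviations were -0.18, 0.05, -0.14 and 0.44, a weak pairing in the values. Pools are separate experiments, and p-values do not describe single mice. Simulated arrays tested the fit; 3.92% of 153 calls were unchanged clusters. The members and lists were chosen with earlier results of these data known. Text names all members and the 3 genes most like each member. Of each pathway list it names the genes past the threshold or, with none, the 3 with the smallest adjusted p. Cdh5, Tie1, Vegfc, Pgf, Gpihbp1, Cldn5, Lum, Pdgfra, Lyve1, Pdpn and Prox1 were chosen after their values were seen. Alternatives were 12 limma refits and a paired test without moderation.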

Additional observations from a re-analysis of the deposited data

Results flagged for a closer look

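In 3 sets of 4 values, 1 stood apart by Dixon's test, among 30 sets examined (fasted levels, fed levels and differences of 10 genes); by chance such a value turns up now and then, in about 5% of sets. Vegfb in experiment 4 was at 7.88 in fasted muscle, where the other 3 pools lay between 7.38 and 7.43, and at 8.04 in fed muscle, where the others lay between 7.56 and 7.60. Both pools of that experiment were high, and the difference between them, -0.17, was like the others. The difference of Vegfa was -0.36 in experiment 2, against -0.24 to -0.22 in the other 3, in the same direction; without experiment 2 it was -0.23.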

How the results depend on the processing

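The directions of 8 members were the same in all 13 alternatives. Hif1a and Apln were reversed when 1 experiment was left out, Hif1a at -0.031 without experiment 1 and -0.014 without experiment 2 (range -0.031 to 0.20), and Apln at 0.083 without experiment 1 (range -0.27 to 0.083). The number of members higher was 0 in every alternative; the number lower was 1 with experiment as a random block (Angpt1) and 0 in the others, where 2 to 5 members had an unadjusted p under 0.05. Over all clusters, 89 rose and 48 fell; leaving out an experiment gave 11 to 68 and 5 to 26. Without the block 117 rose and 68 fell, and 0 members in either direction, so leaving the replicate block out changed no call of a member, while making it random gave the 1 for Angpt1. The counts were 143 and 86 with a random block, 153 and 112 with array weights, 32 and 13 after median centring, 130 and 86 with a trended robust prior, and 149 and 91 without the dimmest 25%, where fewer clusters were tested. With values under 4 set to 4, which left 559 clusters constant, they were 0 and 0 (limma; 2142 at an unadjusted p under 0.05), and without moderation 0 and 1 (1625); the cause of these shifts was not tested. Each member had 1 cluster, so no other cluster could be tried. The number of arrays limits the precision (median SE 0.12), and signal over background was not available to judge dim genes such as Angpt1, Angpt2 and Apln. Adm, Angptl1, Cldn5, Hey2, Lyve1, Myct1, Pgf and Prox1 were dim as well, with means over all arrays below every array median.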
